A study of Rattus norvegicus with 325 samples.

Results

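The diaphragm, the muscle that draws each breath, was compared with the tibialis anterior, the muscle at the front of the shin that lifts the foot, in young male Sprague Dawley rats of 6 months. Members were the libraries whose titles give the muscle and the age, 12 of diaphragm and 12 of tibialis anterior, which made 24 of the 325 bulk RNA-seq libraries in the series. The series followed 4 muscles of these rats, soleus, gastrocnemius, tibialis anterior and diaphragm, from 6 to 27 months. All rats were untreated, of an outbred strain raised by the supplier and housed as 2 animals per cage, and the tissues of a given age were taken on the same day. The labels do not tie a library to an animal, so p-values below measure the spread between these libraries. The question was how far a respiratory and a limb muscle differ in gene expression at the youngest age of the series.

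Muscle fibres differ in the myosin they carry. Slow fibres use the slow myosin and oxidise fat and other fuels in their mitochondria, while the fast types run from oxidative to largely glycolytic. The diaphragm works without rest and mixes slow and fast oxidative fibres, and the tibialis anterior of rodents is a fast muscle. The diaphragm also differs in its origin, its sheet-like build and its faces, which are covered by pleura and peritoneum, that is, by mesothelium. Its muscle precursors come from somites of the neck, whereas those of the tibialis anterior come from the level of the hindlimb, and cells at different levels of the body axis keep different Hox genes active.

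Library totals ranged from 19.4 to 63 M counts (median 27) in the diaphragm and from 28.1 to 66.1 M (median 38) in the tibialis anterior. The 10 genes with most counts took 16.3 to 18.9% of a diaphragm library and 27.5 to 29.3% of a tibialis anterior library. Levels are given below as CPM, that is, counts put on equal library totals with TMM factors, as the lowest, median and highest library, and differences as log2 of diaphragm over tibialis anterior with the standard error (SE). CPM is not divided by transcript length, so levels are compared between muscles and not between genes. A gene was called when its Benjamini-Hochberg adjusted p from limma-voom was under 0.05 and its change exceeded 1.5-fold. The labelled tissue was borne out in both groups by 8 tested markers of skeletal muscle fibres, whose summed level ran from 51900 to 64100 CPM in the diaphragm and from 83900 to 95200 CPM in the tibialis anterior. Of these markers 0 were called higher and 3 lower in the diaphragm: Ckm (-1.23), the muscle creatine kinase, Des (-0.72), the intermediate filament of the Z disc, and Acta1 (-0.60), skeletal actin. The diaphragm library numbered replicate 0 stood apart. Its level was 128 CPM for Ucp1, the uncoupling protein of brown fat, against 0 to 0.259 CPM in the other 11, and 357 CPM for the stress gene Atf3 against 3.6 to 36.8 CPM. Results that rest on it are given with and without it. In bulk samples fewer cells of a type and less RNA per cell cannot be told apart.

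Of 11326 genes tested, 3873 (34.2%) were called: 2538 (22.4%) higher in the diaphragm and 1335 (11.8%) lower. Over 2-fold, the counts were 1396 higher and 417 lower, and over 4-fold 346 higher and 81 lower. All 12 libraries of a muscle lay on the same side of all 12 of the other for 4720 genes (41.7%). The median SE of a log2 difference was 0.056. The split between higher and lower depended on the scaling. With TMM, 65.5% of calls were higher in the diaphragm and the median log2 difference of all genes was 0.02. With scaling to the library total alone, 90.6% of calls were higher and that median was 0.41. The medians of 8 of the 34 gene and marker lists changed sign under this scaling. They turned from -0.31 to 0.08 for Hox genes, from -0.10 to 0.29 for developmental and cardiac sarcomere genes, from -0.12 to 0.28 for the citric acid cycle, from -0.03 to 0.36 for oxygen and antioxidant genes and from -0.23 to 0.16 for muscle fibre markers. The other three, the respiratory chain, the fibre type regulators and the clock genes, are given with their results.

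**Figure D1:**
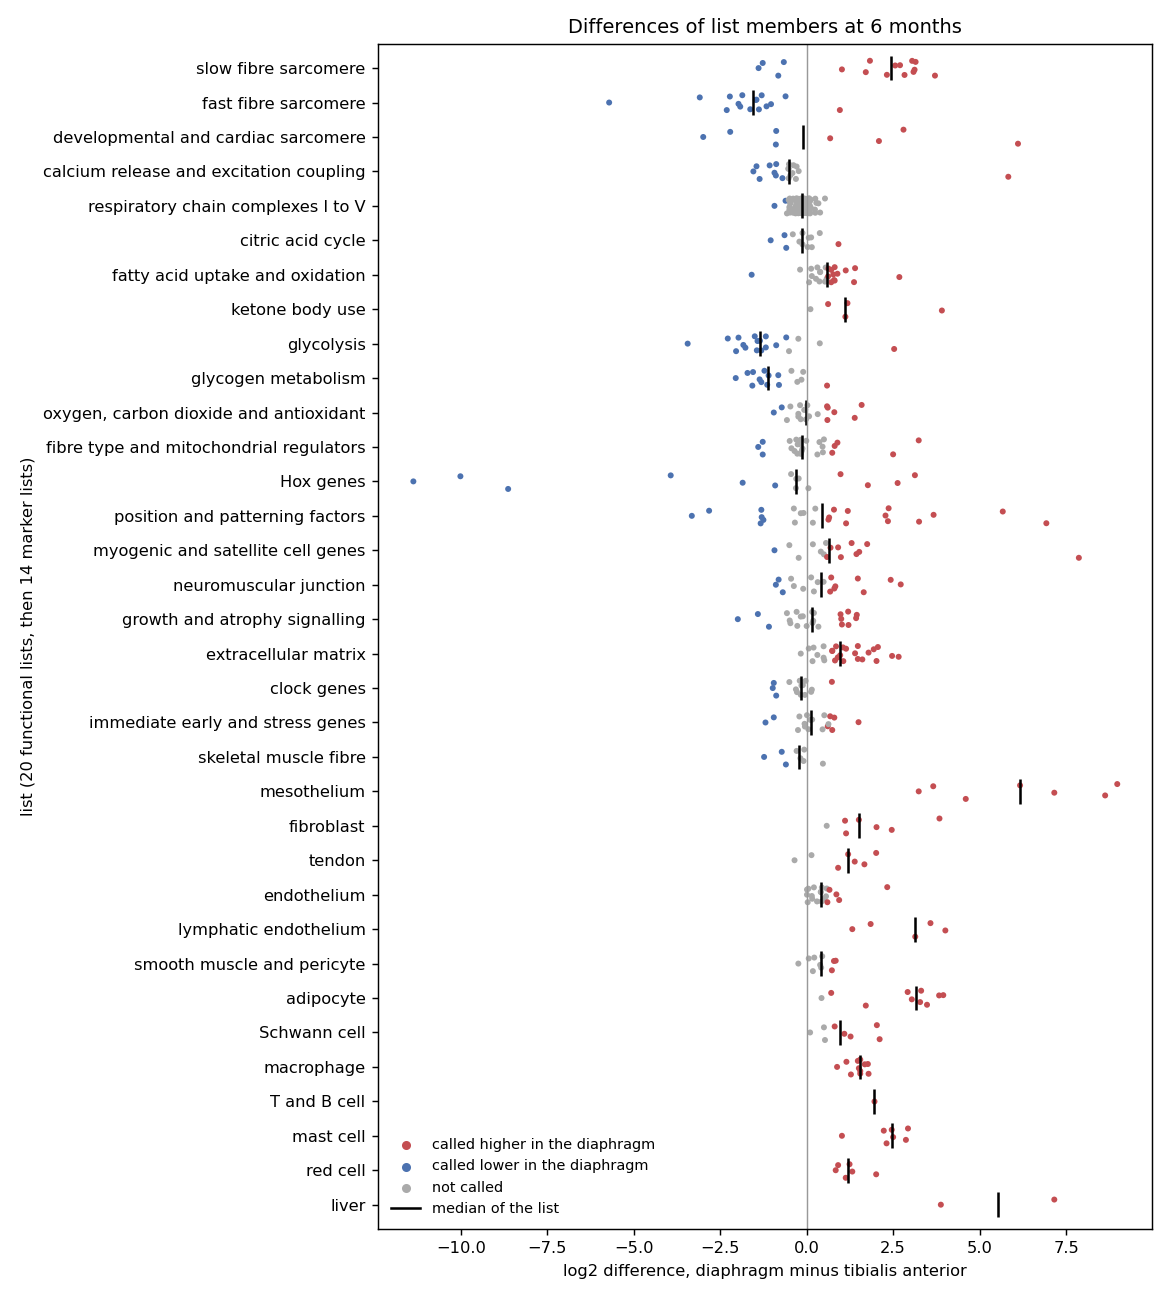
Log2 difference, diaphragm minus tibialis anterior at 6 months, of each tested member (points, coloured by call) and the median (black bar) of 20 functional lists and 14 marker lists. The median for slow fibre genes is 2.44 and for fast fibre genes -1.55, while the respiratory chain lies at -0.14. Those mesothelial markers that passed the filter on low counts lie at 6.17.

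Contractile genes of slow fibres were higher in the diaphragm and nearly all those of fast fibres lower. Of 16 slow fibre genes tested, 12 were higher in the diaphragm and 4 lower, with a median log2 difference of 2.44, where 22.4% of all genes tested were higher. Of 16 fast fibre genes, 1 was higher and 15 were lower, with a median of -1.55, where 11.8% of all genes were lower. The groups of libraries did not overlap for 13 of the slow and 16 of the fast genes, against 41.7% of all genes tested.

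Myh7 encodes the slow (type I) myosin heavy chain. Its level was 13990, 16460 and 19510 CPM (lowest, median and highest) in the diaphragm and 1351, 1933 and 3177 CPM in the tibialis anterior. Every diaphragm library was well above every tibialis anterior library, and the difference was 3.09 (SE 0.11, n = 12 and 12, limma-voom adjusted p = 6.3e-19), an 8.52-fold change. Myh2, the myosin of fast oxidative type IIa fibres, was the fast fibre gene that went against its list. Its level was 10910, 12710 and 13900 CPM in the diaphragm and 4901, 6706 and 7898 CPM in the tibialis anterior. The groups did not overlap and the difference was 0.96 (SE 0.07, adjusted p = 5.6e-13). In a fit that shares 1 estimate of spread with soleus and gastrocnemius it was 0.92 with an SE of 0.66 and was not called (limma-voom adjusted p = 0.2). Myh1, the type IIx myosin, was the most evenly shared of the 4 adult myosins. It ranged over 20590, 26730 and 31290 CPM in the diaphragm and 32290, 41950 and 45390 CPM in the tibialis anterior. The difference was -0.61 (SE 0.07, adjusted p = 1e-08), close to the 1.5-fold limit, and it fell short of that limit with scaling to the total (-0.21) or without diaphragm replicate 5 (-0.57).

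Myh4 encodes the type IIb myosin of the fastest glycolytic fibres and differed most of the 4. Its level was 71710, 81880 and 92710 CPM in the tibialis anterior, against 244.2, 1152 and 7452 CPM in the diaphragm. The diaphragm libraries were all low but far apart from each other, whereas those of the tibialis anterior lay close together. The difference was -5.71 (SE 0.45, adjusted p = 5.2e-12), and its standard error was the largest among the adult myosins. As a share of the counts of these 4 myosin genes, without correction for length, Myh4 took a median of 1.98% in the diaphragm (0.395 to 11.5%) and 62.8% in the tibialis anterior (56.7 to 69.0%). The diaphragm's myosin counts were instead 28.4% Myh7, 21.7% Myh2 and 45.8% Myh1 at the median, against 1.51%, 5.08% and 30.9% in the tibialis anterior. These genes are close paralogs, and how reads matching several of them were counted is not given in the sources used here.

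**Figure D2:**
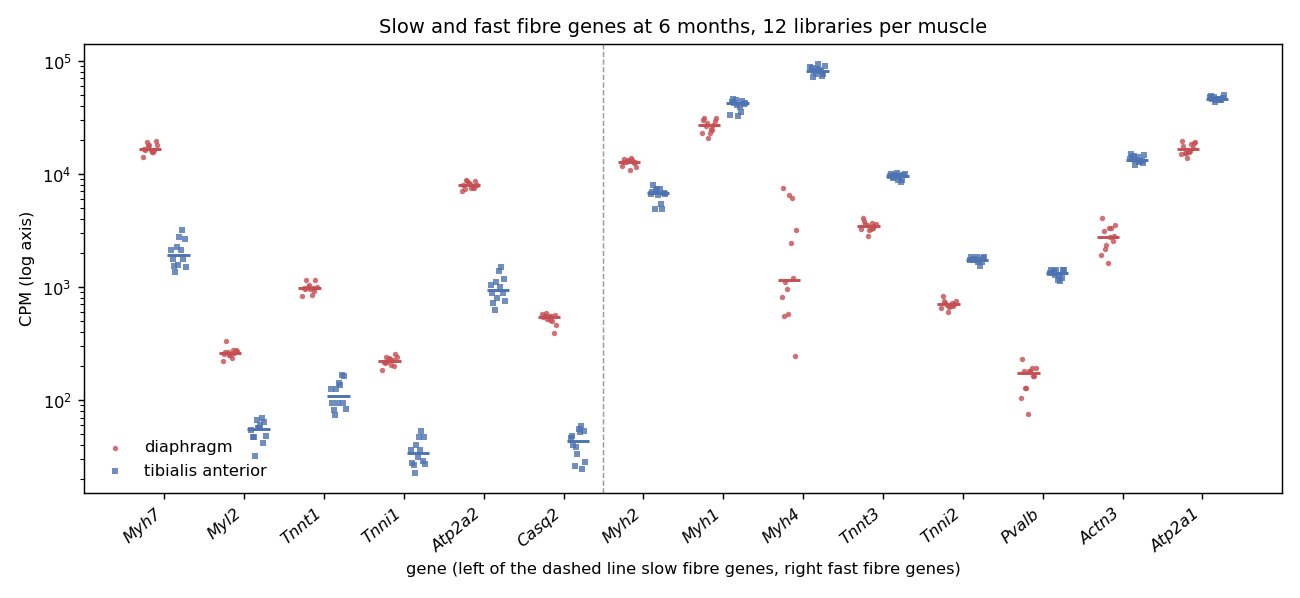
CPM on a log axis of sarcomere genes in each of the 12 diaphragm and 12 tibialis anterior libraries at 6 months, 1 point per library. Myh4 spans 244.2 to 7452 CPM in the diaphragm and 71710 to 92710 CPM in the tibialis anterior, while Myh7 lies at 13990 to 19510 against 1351 to 3177 CPM.

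The 3 adult fast myosin genes lie side by side on the plus strand of chromosome 10, and yet Myh2 was higher in the diaphragm, in the fit of these 2 muscles, and Myh4 lower. In RefSeq's annotation of GRCr8 the starts of Myh2 and Myh1 are 29.2 kb apart and those of Myh1 and Myh4 37.2 kb. The 250 bases before each start are printed because these neighbouring genes moved in opposite directions, at chr10:52355489-52355738 (Myh2), chr10:52384662-52384911 (Myh1) and chr10:52421898-52422147 (Myh4). Capitals mark matches on either strand to 4 motifs. The E-box is CANNTG. The M-CAT element is CATTCC, and the other motifs are TATAAA and the CArG box. No marked match overlaps another.
Myh2: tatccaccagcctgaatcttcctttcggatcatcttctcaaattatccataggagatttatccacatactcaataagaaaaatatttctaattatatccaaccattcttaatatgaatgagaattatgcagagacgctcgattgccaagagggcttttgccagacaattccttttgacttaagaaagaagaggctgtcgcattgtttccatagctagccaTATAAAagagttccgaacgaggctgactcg
Myh1: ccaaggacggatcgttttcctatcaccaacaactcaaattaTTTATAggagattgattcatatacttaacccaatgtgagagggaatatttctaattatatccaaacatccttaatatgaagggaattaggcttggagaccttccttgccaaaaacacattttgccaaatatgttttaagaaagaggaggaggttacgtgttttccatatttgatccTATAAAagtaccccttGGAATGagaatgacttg
Myh4: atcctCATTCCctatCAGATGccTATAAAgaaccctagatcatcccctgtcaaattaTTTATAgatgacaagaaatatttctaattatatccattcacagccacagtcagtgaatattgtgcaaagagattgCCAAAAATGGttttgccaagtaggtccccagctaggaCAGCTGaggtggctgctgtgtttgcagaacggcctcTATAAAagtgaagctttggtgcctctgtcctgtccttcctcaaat
Each window holds TATAAA close to the start, beginning 30 bases before it in Myh2, 33 in Myh1 and 45 in Myh4. The Myh4 window also holds 2 E-boxes, 1 M-CAT element and 1 CArG box. In the Myh1 window there is 1 M-CAT element, and in the Myh2 window none of these 3 motifs was found. Among 33469 RefSeq windows of this length, 65.5% hold an E-box, 12.1% an M-CAT element, 12.9% TATAAA and 1.5% a CArG box. Of the fast fibre genes 13 of 16 had an entry, and 10 of these 13 windows held an E-box, against 12 of 12 windows for slow fibre genes. These matches describe the letters of the windows, and binding was not measured.

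The thin filament and calcium handling proteins of slow fibres followed Myh7. Tnnt1, slow troponin T, was at 822.9, 982 and 1154 CPM in the diaphragm and at 73.74, 109.2 and 168.1 CPM in the tibialis anterior, a difference of 3.15 (SE 0.11, adjusted p = 3.1e-19). Casq2, the calsequestrin of slow and cardiac muscle, had the largest difference of the list, 3.71 (SE 0.11, adjusted p = 1.5e-20), from 391 to 583 CPM against 24.67 to 58.39 CPM. For both genes the groups were far apart. Tpm3, slow tropomyosin (3.12), Atp2a2, the slow fibre calcium pump SERCA2 (3.05), Tnni1, slow troponin I (2.70), and Myl2, a slow regulatory light chain (2.32), lay in the same range with adjusted p from 1.9e-19 to 1.4e-18.

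Changes in the other direction marked the fast fibre genes with the clearest specialisation. Pvalb encodes parvalbumin, the calcium buffer of fast relaxing fibres. It was at 75.45, 172.2 and 228.8 CPM in the diaphragm and at 1136, 1327 and 1425 CPM in the tibialis anterior. No diaphragm library came near the tibialis anterior range, and the difference was -3.09 (SE 0.12, adjusted p = 2.9e-18). Actn3, the actinin of fast Z discs, differed by -2.31 (SE 0.11, adjusted p = 1e-16), Tpm1, fast tropomyosin, by -2.22 (SE 0.05), Mylk2, the skeletal myosin light chain kinase, by -1.97 (SE 0.06), Atp2a1, the fast calcium pump SERCA1, by -1.47 (SE 0.05), Tnnt3, fast troponin T, by -1.45 (SE 0.04) and Tnni2, fast troponin I, by -1.30 (SE 0.04).

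Not every gene of the slow list was higher in the diaphragm. Ankrd2 and Csrp3, both of which respond to stretch and load in muscle, were lower, at 3.058, 7.365 and 11.21 against 8.64, 16.28 and 26.23 CPM for Ankrd2 (-1.27, SE 0.24, adjusted p = 2.1e-05). Csrp3 was at 4.588, 10.16 and 128.3 CPM in the diaphragm and at 21.24, 36.85 and 65.71 CPM in the tibialis anterior (-1.39, SE 0.39, adjusted p = 0.002). The groups overlapped for both genes, and the highest Csrp3 value belonged to diaphragm replicate 0. Without that library the difference in Csrp3 was -1.78, and with edgeR's quasi-likelihood test on all libraries it was -0.68 (adjusted p = 0.16). Mybpc1, slow myosin binding protein C (-0.82, SE 0.04, adjusted p = 7.2e-17), and Myl6b, a slow light chain (-0.66, SE 0.13, adjusted p = 3.2e-05), were also lower.

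Among 8 sarcomere genes of heart and developing muscle, 4 were higher and 4 lower (22.4% and 11.8% of all genes), with a median of -0.10. Tnni3, cardiac troponin I, was at 0.7021, 1.868 and 2.965 CPM in the diaphragm, while its highest tibialis anterior library reached 0.1056 CPM (6.11, SE 0.42, adjusted p = 3.5e-13). Levels of this gene were low in absolute terms, but the groups did not overlap. Myh6, the alpha cardiac myosin, was at 9.343, 68.52 and 132.6 against 1.964, 7.516 and 21.06 CPM (2.80, SE 0.58, adjusted p = 8.2e-05). Tnnt2, cardiac troponin T, differed by 2.09 (SE 0.39) and Actc1, cardiac actin, by 0.68. The embryonic and perinatal myosins Myh3 (-0.88) and Myh8 (-0.89), the light chain Myl4 (-2.21) and the myosin binding protein Mybph (-2.99) were lower.

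Genes of calcium release showed 1 member higher and 8 lower among 19 tested (22.4% and 11.8% of all genes), with a median of -0.52. The exception was Sln, sarcolipin, a small inhibitor of the SERCA pumps. Its level was 11.15, 14.58 and 25.1 CPM in the diaphragm and 0.03521, 0.2633 and 0.9028 CPM in the tibialis anterior. The groups were far apart, and the difference was 5.83 (SE 0.41, adjusted p = 4.2e-13). Lower were Cacng1, a subunit of the voltage sensor (-1.54, SE 0.04), Camk2a, a calmodulin-dependent kinase (-1.45, SE 0.08), Jph2, which ties the transverse tubule to the reticulum (-1.36, SE 0.04), and Camk2d (-1.07, SE 0.05). With scaling to the total, 4 rather than 8 members were lower.

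In energy metabolism few genes of the mitochondrial core were called, while most genes of glycolysis were lower and many of fat use higher in the diaphragm. Of 67 respiratory chain subunits tested, 0 were called higher and 2 lower, Ndufb7 (-0.93, SE 0.08) and Ndufs8 (-0.61, SE 0.04), both of complex I. The summed level of the list was 18900, 20800 and 22700 CPM in the diaphragm and 21000, 22200 and 23700 CPM in the tibialis anterior, and these ranges overlapped. The median of -0.14 turned to 0.25 with scaling to the total, where 7 members were higher and 0 lower. In the citric acid cycle 1 of 13 genes was higher and 3 were lower (22.4% and 11.8% of all genes). Idh2, mitochondrial NADP-dependent isocitrate dehydrogenase, was higher (0.92, SE 0.03), while Idh3a, a subunit of the NAD-dependent enzyme (-1.04, SE 0.03), Dld (-0.64) and Sucla2 (-0.59) were lower. Cs, citrate synthase, often used as a measure of mitochondrial content, was at 673.9, 716.6 and 763.4 against 639, 702.9 and 717.6 CPM, a difference of 0.06 (SE 0.02, adjusted p = 0.027) within overlapping groups. Mb, myoglobin, differed by -0.07 (SE 0.03, adjusted p = 0.039), and with scaling to the total its sign turned (0.33).

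Of 26 genes for taking up and burning fatty acids, 13 were higher in the diaphragm, 1 was lower and 12 were not called. The median was 0.60, and of all genes 22.4% were higher and 11.8% lower. Lpl, lipoprotein lipase, which frees fatty acids from circulating lipoproteins, was at 1444, 1673 and 1918 CPM in the diaphragm and at 195.3, 257.5 and 290.7 CPM in the tibialis anterior. The groups were far apart, with a difference of 2.68 (SE 0.05, adjusted p = 6.6e-24), although adipocytes and endothelium also handle this enzyme and adipocyte markers moved the same way. Their part in it was not tested. The fatty acid transporter Slc27a1 (1.4, SE 0.11), the cytosolic binding protein Fabp3 (1.37, SE 0.06) and the uptake receptor Cd36 (1.13, SE 0.10) followed. The member that went the other way was Ucp3, a mitochondrial carrier of muscle, at 34.92, 52.06 and 129.4 against 125.3, 164.2 and 240.2 CPM (-1.59, SE 0.17, adjusted p = 3.7e-09).

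Of 5 ketone body genes 4 were higher and 0 lower, against 22.4% and 11.8% of all genes. Bdh1, which converts hydroxybutyrate to acetoacetate, was at 27.66, 34 and 37.71 CPM in the diaphragm and at 1.155, 2.532 and 3.119 CPM in the tibialis anterior (3.91, SE 0.13, adjusted p = 5.5e-20). The groups did not come near each other. Oxct1, the next enzyme on this path, was at 1430, 1570 and 1712 against 641.8, 719.9 and 781.5 CPM (1.12, SE 0.04, adjusted p = 2e-20). The transporter Slc16a1 (0.62, SE 0.04) was called too, while Acat1 (0.11) did not pass.

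The glycolytic pathway went the opposite way, with 1 of 19 genes higher and 15 lower (22.4% and 11.8% of all genes), and a median of -1.35. Its summed level was 24600 to 30400 CPM in the diaphragm and 59700 to 66900 CPM in the tibialis anterior. Slc16a3, the transporter that exports lactate, was at 22.06, 29.14 and 44.37 against 277.7, 323.4 and 339.5 CPM (-3.44, SE 0.08, adjusted p = 5.6e-23). No library of a muscle lay near the range of the other. Tpi1 (-2.04, SE 0.05) and Pkm (-1.97, SE 0.04), enzymes of the lower pathway, followed, as did Pfkfb3, which makes the activator of phosphofructokinase (-2.28, SE 0.28). Ldhb, the lactate dehydrogenase subunit of oxidative tissues, was the gene that was higher, at 310, 327.5 and 416.2 CPM against 41.2, 60.12 and 67.9 CPM (2.53, SE 0.06, adjusted p = 2.3e-22).

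Glycogen metabolism resembled glycolysis, with 1 of 16 genes higher, 11 lower and a median of -1.12. Stbd1, a glycogen binding protein, differed by -2.05 (SE 0.05), and 3 subunits of phosphorylase kinase by -1.71 (Phkg1, SE 0.06), -1.57 (Phka1, SE 0.04) and -1.55 (Phkb, SE 0.04). Pgm1, phosphoglucomutase, differed by -1.36 (SE 0.04). The branching enzyme Gbe1 was higher (0.59, SE 0.04, adjusted p = 3.2e-14) at the edge of the 1.5-fold limit, and it fell below that limit without diaphragm replicate 2, 4, 5 or 10, or without tibialis anterior replicate 1, 3 or 8. Among 20 genes of oxygen handling and antioxidant defence, 6 were higher and 2 lower, near the shares of all genes tested (22.4% and 11.8%). Gpx1 (1.59, SE 0.06) and Gpx3 (1.39, SE 0.06), both glutathione peroxidases, and Nqo1 (0.80, SE 0.07) were higher, while Egln2, an oxygen-sensing hydroxylase (-0.95, SE 0.04), and Prdx5, a peroxiredoxin (-0.72, SE 0.05), were lower.

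Of 25 regulators of fibre type and mitochondria, 5 were higher and 3 lower, again near the 22.4% and 11.8% of all genes. Prox1, a homeobox factor of slow fibres and of lymphatic endothelium, was at 60.72, 65.06 and 75.59 CPM in the diaphragm and at 5.462, 6.663 and 10.25 CPM in the tibialis anterior (3.24, SE 0.08, adjusted p = 1.2e-22), and the groups were far apart. Lymphatic markers moved the same way, and their part in this value was not tested. Esrrb, an oestrogen-related receptor, was higher as well (2.50, SE 0.14). Among the lower were Maf (-1.4, SE 0.08) and Sox6, a repressor of slow fibre genes (-1.27, SE 0.04). Ppargc1a, the coactivator PGC-1 alpha that drives mitochondrial genes, was at 62.7, 89.51 and 103.8 against 58.74, 68.25 and 76.37 CPM. These groups overlapped, and the difference of 0.37 (SE 0.06, adjusted p = 5.9e-06) was under 1.5-fold with TMM and over it with scaling to the total (0.76). The median of the list, -0.14, turned to 0.26 under that scaling.

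Positional genes separated the muscles sharply, some being at 0 counts in every library of a muscle. Of 25 Hox genes listed in the files, 15 passed the filter on low counts. Of these 4 were higher in the diaphragm and 6 lower (22.4% and 11.8% of all genes). Hoxc10, a gene of the lumbar level and hindlimb, was at 64.86, 69.18 and 76.51 CPM in the tibialis anterior, against 0, 0 and 0.1523 CPM in the diaphragm, where the 12 libraries together held 11 counts (-11.37, SE 0.29, adjusted p = 2.5e-22). Hoxc11 had 6228 counts in the tibialis anterior and 0 in the diaphragm, at least 2180-fold lower against a floor of 3 counts over the 12 libraries. Hoxa11 had 2393 and 0 counts, at least 839-fold lower. Hoxc9 was at 8.521, 10.11 and 11.26 CPM in the tibialis anterior and at 0.2664, 0.6219 and 1.125 CPM in the diaphragm (-3.93, SE 0.16, adjusted p = 4.7e-18), and Hoxc8 (-1.85, SE 0.17) and Hoxa6 (-0.91) were lower too. The lower genes thus belonged mostly to the posterior end of the clusters.

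The 4 Hox genes that were higher in the diaphragm carry lower numbers, which mark more anterior levels. Hoxb4 was at 11.92, 13.74 and 14.62 CPM in the diaphragm and at 0.9028, 1.605 and 2.32 CPM in the tibialis anterior (3.13, SE 0.09, adjusted p = 2.4e-21). Hoxa2 (2.63, SE 0.14), Hoxb3 (1.77, SE 0.12) and Hoxb5 (0.98, SE 0.14) followed, and only Hoxb5 among them had groups that overlapped. The highest Hoxa2 value in the tibialis anterior was 0.9931 CPM and the lowest in the diaphragm 3.071 CPM. The order by number holds for called genes only. The 5 Hox genes tested and not called were Hoxc4, Hoxc5 and Hoxd4, of lower number, and Hoxa9 and Hoxd9, of higher number.

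Of 24 other patterning factors tested, 12 were higher in the diaphragm, 6 were lower and 6 were not called, with a median of 0.44. Of all genes 22.4% were higher and 11.8% lower. Meis2, a homeobox partner of Hox proteins, was at 41.83, 45.64 and 53.27 CPM in the diaphragm and at 0.2012, 0.3717 and 0.725 CPM in the tibialis anterior (6.93, SE 0.20, adjusted p = 3e-21). Gata4, a factor of the heart and of the fold from which part of the diaphragm forms, was at 4.095, 6.154 and 8.612 against 0.02782, 0.0948 and 0.4577 CPM (5.67, SE 0.41, adjusted p = 7.4e-13). Neither gene had a library of the tibialis anterior within the diaphragm range. Tbx3, a T-box factor of limb and body wall, was at 53.33, 68.7 and 75.97 against 3.534, 5.226 and 6.261 CPM (3.67, SE 0.08, adjusted p = 5.6e-23). Shox2 (3.25, SE 0.19) was also higher. Lower were Pax9 (-3.32, SE 0.42), Six2 (-2.82, SE 0.27), Lbx1, a marker of migrating limb precursors (-1.33, SE 0.07), Tbx1 (-1.31, SE 0.04), Irx5 (-1.30, SE 0.17) and Irx3 (-1.25, SE 0.14).

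The factors that distinguish forelimb from hindlimb were scarce in both muscles, and 3 of them did not pass the filter on low counts. Tbx5, the forelimb and heart factor, had 263 counts over the diaphragm libraries, 85 of them in replicate 0, and 15 over the tibialis anterior libraries. Without the filter the difference in Tbx5 over all libraries was 3.86 (limma-voom adjusted p = 1.5e-08). Tbx4 had 79 and 176 counts and Pitx1, both hindlimb factors, 21 and 97.

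A pair of bHLH-PAS factors were as divided as the Hox genes. Sim1 was at 71.27, 84.39 and 99.68 CPM in the tibialis anterior and at 0, 0.05759 and 0.5041 CPM in the diaphragm (-10.20, SE 0.40, adjusted p = 1.7e-18). Sim2 was at 58.16, 62.7 and 67.97 against 2.535, 4.077 and 10.45 CPM (-3.90, SE 0.14, adjusted p = 3.7e-19). No library of either muscle fell within the range of the other for these genes. Pax3, a factor of muscle precursors that persists in some satellite cells, was at 4.161, 6.439 and 7.56 CPM in the diaphragm, and its highest tibialis anterior library reached 0.05923 CPM (7.87, SE 0.34, adjusted p = 1.2e-17).

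Satellite cell and myogenic genes were mainly higher in the diaphragm, 9 of 16 with 1 lower (22.4% and 11.8% of all genes) and a median of 0.64. Beside Pax3, the quiescence receptor Calcr (1.75, SE 0.13), the determination factor Myf5 (1.52, SE 0.10), the laminin receptor subunit Itga7 (1.44, SE 0.03) and the adhesion molecule Vcam1 (1.30, SE 0.11) were higher, and their groups of libraries did not overlap. Myod1, a determination factor that is also higher in fast fibres, was lower, at 35.93, 45.47 and 121.3 against 66.91, 96.35 and 141.6 CPM (-0.93, SE 0.15, adjusted p = 1.8e-06). The highest diaphragm value of Myod1 came from replicate 0, and the difference was -1.07 without it.

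At the neuromuscular junction 8 of 18 genes were higher and 3 lower, against 22.4% and 11.8% of all genes, so the share of lower genes was near that of all genes. Colq, the collagen tail that anchors acetylcholinesterase, was at 18.9, 25.16 and 37.98 CPM in the diaphragm and at 2.596, 4.235 and 5.836 CPM in the tibialis anterior (2.72, SE 0.15, adjusted p = 2.4e-15). The enzyme itself, Ache, was lower (-0.89, SE 0.04, adjusted p = 2.8e-16), so the anchor and the enzyme moved in opposite directions with groups apart in both cases. Also higher were the receptor kinase Musk (1.65, SE 0.10) and the acetylcholine receptor subunit Chrnd (1.48, SE 0.07). Lower were the adult sodium channel Scn4a (-0.81, SE 0.03) and the adaptor Dok7 (-0.69, SE 0.08). Chrne, the adult receptor subunit, was at 5.839, 7.627 and 10.59 against 7.342, 8.361 and 10.11 CPM and did not pass (-0.10, SE 0.09, adjusted p = 0.28), and its sign turned with scaling to the total (0.29).

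Among 23 genes of growth and atrophy signalling, 7 were higher and 3 lower, near the 22.4% and 11.8% of all genes. Mstn, myostatin, which restrains muscle growth, was at 2.531, 3.697 and 6.11 CPM in the diaphragm and at 12.27, 15.65 and 21.62 CPM in the tibialis anterior (-1.99, SE 0.13, adjusted p = 7.4e-14). All diaphragm libraries were below all those of the tibialis anterior. Its inhibitor Fstl3 (-1.41, SE 0.31) and the ubiquitin ligase Trim63 (-1.09, SE 0.06) were lower as well. Igf1, the growth factor, was at 26.48, 39.04 and 48.4 against 12.22, 16.53 and 20.15 CPM (1.21, SE 0.10, adjusted p = 1.2e-11), and its binding protein Igfbp4 (1.45, SE 0.09) and the cell cycle inhibitor Cdkn1a (1.43, SE 0.18) were higher.

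Of 27 matrix genes 19 were higher in the diaphragm and 0 lower, with a median of 0.97, where 22.4% of all genes were higher. Col14a1, a fibril-associated collagen, was at 203.5, 258.5 and 345.9 against 29.56, 49.35 and 59.72 CPM (2.47, SE 0.10, adjusted p = 1.5e-18), and Mfap4, an elastic fibre protein (2.66, SE 0.10), and the proteoglycans Bgn (2.06, SE 0.10) and Lum (2.02, SE 0.09) had differences of like size. In each of these genes the groups did not overlap, whereas they did for Thbs1 (1.94, SE 0.33). Of 7 fibroblast markers 6 were higher and 0 lower, led by Fbln1, a fibulin (3.84, SE 0.16), and their summed level was 1290 to 1560 CPM in the diaphragm and 461 to 770 CPM in the tibialis anterior.

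Mesothelium had the largest median difference of the marker lists. Of 10 markers listed, 7 passed the filter and all 7 of these were higher, with a median of 6.17. The filter could be passed through either muscle alone, so a marker near 0 in the tibialis anterior was tested only where the diaphragm held enough counts. This count and median describe the markers that passed and are no test of direction. The same limit applies to the T and B cell and liver lists below. The summed level of all 10 listed was 19.1, 72.3 and 133 CPM in the diaphragm and 0.94, 1.55 and 2.77 CPM in the tibialis anterior. Wt1, a zinc finger factor of mesothelium, had 3493 counts against 0, at least 1110-fold higher, and Bnc1, basonuclin, had 3780 against 0, at least 1200-fold higher, both against a floor of 3 counts over the 12 libraries. Msln, mesothelin, was at 5.089, 33.62 and 64.75 against 0.0696, 0.1157 and 0.3256 CPM (7.16, SE 1.89, adjusted p = 0.0011). The diaphragm libraries spread widely in Msln while the tibialis anterior libraries all stayed near 0.

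The complement genes C3 and C4a and the membrane-bound factor Myrf varied between diaphragm libraries together with Msln. C3, C4a and Myrf were among the 10 genes highest in the diaphragm, ranked over called genes with a mean log2 CPM over 0. C3 was at 8.426, 76.4 and 169.3 CPM in the diaphragm and at 0.4063, 0.9213 and 1.363 CPM in the tibialis anterior (5.94, SE 1.56, adjusted p = 0.0011). C4a was at 114.2, 585.9 and 1047 against 8.387, 9.782 and 20.61 CPM (5.25, SE 0.42, adjusted p = 5.9e-12), and Myrf at 4.368, 17.18 and 33.58 against 0.1777, 0.4202 and 0.7899 CPM (4.85, SE 0.90, adjusted p = 2.2e-05). Over the 12 diaphragm libraries the correlation of log2 CPM with Msln was r = 0.99 for each (rho = 0.99, 0.98 and 1.0). The permutation p was 1e-05 for r and rho alike, the smallest that 100000 resamples can give, or 3.7e-05 adjusted over 11 relations. Leaving out the 2 libraries farthest from the median of Msln, replicates 4 and 10, gave r of 0.98, 0.99 and 0.99. The other 8 relations did not pass (adjusted permutation p of 0.23 or more for r), among them Meis2 (r = 0.52, rho = 0.48), Sln (r = 0.13, rho = 0.13) and Adipoq (r = 0.25, rho = 0.16). The part of mesothelial cells in these complement values was not tested.

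**Figure D3:**
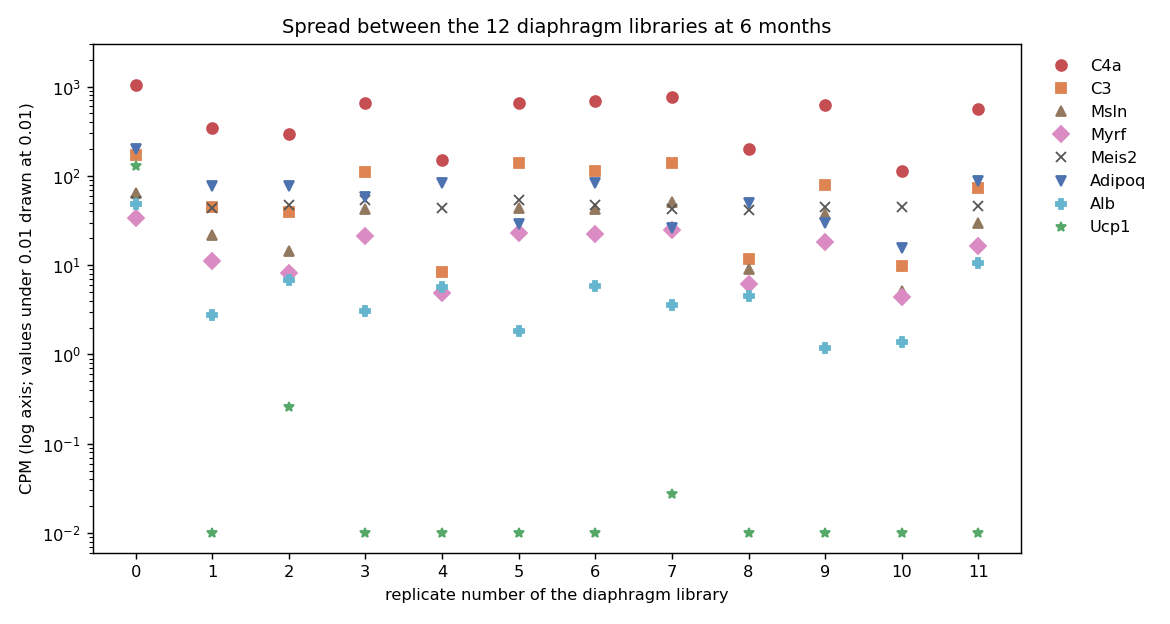
CPM on a log axis of selected genes in each of the 12 diaphragm libraries at 6 months, ordered by replicate number, with values under 0.01 drawn at 0.01. Msln, C3, C4a and Myrf move up and down together, and Ucp1 stands at 128 CPM in replicate 0 and at 0 to 0.259 CPM in the other 11.

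Lymphatic endothelium was set apart from blood endothelium. All 5 lymphatic markers tested were higher, with a median of 3.14 and a summed level of 166 to 425 CPM against 23.7 to 36.8 CPM. Ccl21, the chemokine that guides cells into lymph vessels, was at 63.39, 98.26 and 165.4 against 3.813, 6.646 and 8.096 CPM (4.01, SE 0.19, adjusted p = 1.2e-16). Reln (3.58, SE 0.18), Lyve1 (3.14, SE 0.20), Pdpn (1.85, SE 0.20) and Flt4 (1.32, SE 0.10) were higher with groups apart. Of 20 endothelial markers 5 were higher and 0 lower, with a median of 0.42, a share near the 22.4% of all genes. Eng (0.94, SE 0.04), Vwf (0.86, SE 0.04) and Pecam1 (0.66, SE 0.04) kept their call without any one library, while Sox7 (0.60) and Robo4 (2.33, SE 1.06, adjusted p = 0.046) did not, and the count was 3 without diaphragm replicate 2 or 5. Smooth muscle and pericyte markers gave 3 of 10 higher, Lmod1 (0.84), Cnn1 (0.79) and Myh11 (0.73), also near that share, and 5 of 8 Schwann cell markers were higher, led by S100b (2.11, SE 0.32) and Gldn (2.03, SE 0.21).

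Immune markers were also higher than in the tibialis anterior. For comparison, 22.4% of all genes were called higher. All 11 macrophage markers tested were higher (median 1.55), with a summed level of 210 to 421 CPM against 74.7 to 124 CPM, among them Lyz2 (1.79, SE 0.12) and Cd68 (1.77, SE 0.16). The same held for 7 of 7 mast cell markers (median 2.46). Cpa3, the mast cell carboxypeptidase, was at 12.4, 28.23 and 34.85 against 1.912, 3.463 and 4.35 CPM (2.93, SE 0.25, adjusted p = 2.1e-11). Of 10 T and B cell markers listed, 1 passed the filter, Lck (1.94, SE 0.23), and their summed level was 1.74 to 5.22 CPM against 0.369 to 0.977 CPM. All 6 red cell genes tested were higher (median 1.18), with a summed level of 428 to 797 CPM against 194 to 324 CPM.

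Adipocyte markers were higher for 9 of 10 tested, with a median of 3.16, where 22.4% of all genes were higher. Adipoq, adiponectin, was at 15.7, 67.16 and 201.4 against 2.87, 4.482 and 13.84 CPM (3.31, SE 0.50, adjusted p = 1.1e-06). The groups did not overlap, the highest diaphragm value came from replicate 0, and without it the difference was 3.10 and 8 of the markers were higher. Pck1 (3.83, SE 1.09), Cidea (3.95, SE 0.54), Retn (3.48, SE 0.69) and Cidec (3.28, SE 0.70) lay in the same range, and without replicate 0 their differences were 3.41, 3.67, 3.23 and 2.99. Of 10 liver genes 2 passed the filter, Alb, albumin, at 1.194, 4.042 and 48.81 against 0, 0.01481 and 0.0814 CPM (7.16, SE 1.32, adjusted p = 2e-05), or 6.70 without replicate 0, and Cyp2e1 (3.88, SE 0.68, or 3.58 without it). In the fit of all 4 muscles Alb differed by 7.16 with an SE of 4.83 and was not called (limma-voom adjusted p = 0.17). The soleus held more Alb than the diaphragm, at 3.66, 77.2 and 1180 CPM (diaphragm minus soleus -3.54, SE 0.86, limma-voom adjusted p = 0.00038). Of 6 liver genes tested in that fit, 0 were higher and 5 lower in the diaphragm than in the soleus. The filter could be passed through the soleus alone, so this count is no test of direction. Tendon markers were higher for 5 of 7, but their groups overlapped throughout. Diaphragm replicate 3 was low in them, with Chad at 0.91 CPM against 11.4 to 168 CPM in the other 11, and without it the differences grew from 2.01 to 2.49 for Chad, from 1.67 to 2.14 for Kera and from 1.39 to 1.72 for Tnmd. How far these non-muscle cells enter the differences in other genes was not tested.

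Genes that follow the time of day or respond quickly to stress were called at shares not far from the 34.2% of all genes. Of 15 clock genes 1 was higher and 3 lower, with a median of -0.17 that turned to 0.23 with scaling to the total. Bhlhe40 (-0.95, SE 0.08) and Tef (-0.88, SE 0.05) were lower with groups apart, Npas2 was higher (0.73, SE 0.10), and Ciart (-0.98, SE 0.41, adjusted p = 0.03) lost its call with edgeR (adjusted p = 0.091) or DESeq2 (0.11). Of 18 immediate early and stress genes, 5 were higher and 2 lower, and the groups of libraries overlapped for every one. Nr4a1 (-1.19, SE 0.15) and Jun (-0.95, SE 0.13) were lower. Atf3 (1.5, SE 0.64, adjusted p = 0.035) and Hspa1b (0.80, SE 0.29, adjusted p = 0.015) were higher with replicate 0 far above the rest, at 357 and 688 CPM, and the differences were 0.97 and 0.50 without it, the latter under 1.5-fold.

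Among the genes with the largest differences several stood outside every list. Mylk3, the cardiac myosin light chain kinase, was at 13.7, 14.94 and 18.68 CPM in the diaphragm and at 0.1006, 0.1644 and 0.287 CPM in the tibialis anterior (6.40, SE 0.21, adjusted p = 4.4e-20). Tecrl, a gene of the heart's reticulum, was at 37.99, 45.81 and 57.47 against 0.9396, 1.41 and 2.616 CPM (5.01, SE 0.18, adjusted p = 1.8e-19). Both showed tight groups that lay far apart. Ppp1r1c, a phosphatase regulator (5.01, SE 0.46), and Sgol2, shugoshin (4.69, SE 0.25), were also higher. Espl1, separase, another gene of chromosome segregation, was lower, at 1.606, 2.418 and 3.321 against 25.59, 29.32 and 35.39 CPM (-3.67, SE 0.10, adjusted p = 1.1e-21). Tmem132b (-4.43, SE 0.42) and Ubxn10 (-3.67, SE 0.29) completed the 10 lowest called genes among those with a mean log2 CPM over 0.

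The other limb muscles were brought in to ask which differences held against each of them. In a fit of all 4 muscles at 6 months, which shares the diaphragm libraries between contrasts, 2622 of 11863 genes (22.1%) were called against the soleus, a slow muscle of the calf, 4524 (38.1%) against the gastrocnemius and 4177 (35.2%) against the tibialis anterior. In the labels' description field the gastrocnemius libraries carry a separate series of sample numbers, and what these numbers stand for is not stated. Against the soleus, 1502 genes (12.7%) were higher and 1120 (9.44%) lower in the diaphragm. Of 16 slow fibre genes 1 was higher and 14 were lower than in the soleus, with a median of -1.20, and all 16 fast fibre genes were higher, with a median of 5.59. The median level of the diaphragm lay between those of soleus and tibialis anterior for 12 of the 16 slow and 15 of the 16 fast genes. Ankrd2, Csrp3 and Mybpc1 were lowest in the diaphragm, and Pln, which restrains SERCA2, and Myh2 were highest there. Myh7 differed by -1.47 from the soleus and by 1.09 from the gastrocnemius. Of 26 fatty acid genes 4 were higher and 1 lower than in the soleus. For 5 ketone body genes these counts were 0 and 0, and for 19 glycolytic genes 14 and 0. Tecrl (-1.11) and Colq (-1.84) were lower than in the soleus, while Mylk3 (4.66) was higher. In several lists that were higher than in the tibialis anterior, fewer members were higher than in the soleus. There 0 of 11 macrophage, 2 of 7 fibroblast and 2 of 10 adipocyte markers were higher, with 0 lower in each. Of 27 matrix genes 2 were higher and 6 lower, and of 7 tendon markers 0 and 7. Higher than in the soleus were 5 of 5 lymphatic, 6 of 7 mast cell and 6 of 6 red cell markers. All 9 mesothelial markers tested were higher too, but the filter could be passed through the diaphragm alone. That count describes the markers that passed and is no test of direction.

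A total of 594 genes (5.01%) were higher in the diaphragm than in each limb muscle and 108 (0.91%) lower. Without diaphragm replicate 0 the counts were 522 and 108, and without the gastrocnemius 631 and 132. Median levels in diaphragm, soleus, gastrocnemius and tibialis anterior were 45.2, 2.56, 2.50 and 0.373 CPM for Meis2, 67.9, 4.30, 3.49 and 5.24 CPM for Tbx3, and 13.5, 0.953, 0.960 and 1.61 CPM for Hoxb4. In each gene the 3 limb muscles were low and the diaphragm alone was high. Atp2b2, a plasma membrane calcium pump, stood at 16.6, 0.695, 0.747 and 1.85 CPM, and Amy1a, an amylase, at 21.6, 3.01, 3.00 and 1.94 CPM. These and Shox2, Gcnt2, Ccl21, C4a and Myrf were the 10 genes with the largest smallest difference among those with a mean log2 CPM over 0 across the 4 muscles. That limit left out genes that were near 0 in the limb muscles, such as Wt1, Bnc1, Msln, Mylk3 and Pax3.

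Of the 10 genes named by the same rule among those lower than in each limb muscle, 4 were Hox genes. In the same order of muscles the medians were 0, 63.9, 73.9 and 70.0 CPM for Hoxc10 and 0, 28.0, 26.6 and 16.3 CPM for Hoxc11. Hoxc8 and Hoxc9 belonged to the same 10. Sim1 was at 0.0562, 89.1, 5.14 and 84.9 CPM and Sim2 at 4.02, 143, 49.9 and 63.4 CPM, so Sim1 also split the limb muscles. Mettl21c, a methyltransferase, was at 1.76, 219, 31.3 and 7.80 CPM, with the soleus far above the rest. Myl4, Tbc1d10c and Slc9b1 were the remaining genes of the 10. Hoxa11, with 0 counts in the diaphragm, had a mean log2 CPM under 0 and so was not ranked. Pax3 had a median of 0 CPM in soleus and tibialis anterior and of 0.581 CPM in the gastrocnemius, against 6.32 CPM in the diaphragm. Rp1, a microtubule protein best known from photoreceptors and named after its values were seen, was at 13.5 CPM in the diaphragm and 9.78 CPM in the soleus, but at 0.0868 and 0.0487 CPM in gastrocnemius and tibialis anterior. Ush1c was divided the other way, at 0.0414 and 0.0126 CPM against 3.28 and 4.13 CPM, as was Gabrr1, at 0.106 and 0.170 CPM against 6.33 and 5.33 CPM, both also named after their values were seen.

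**Figure D4:**
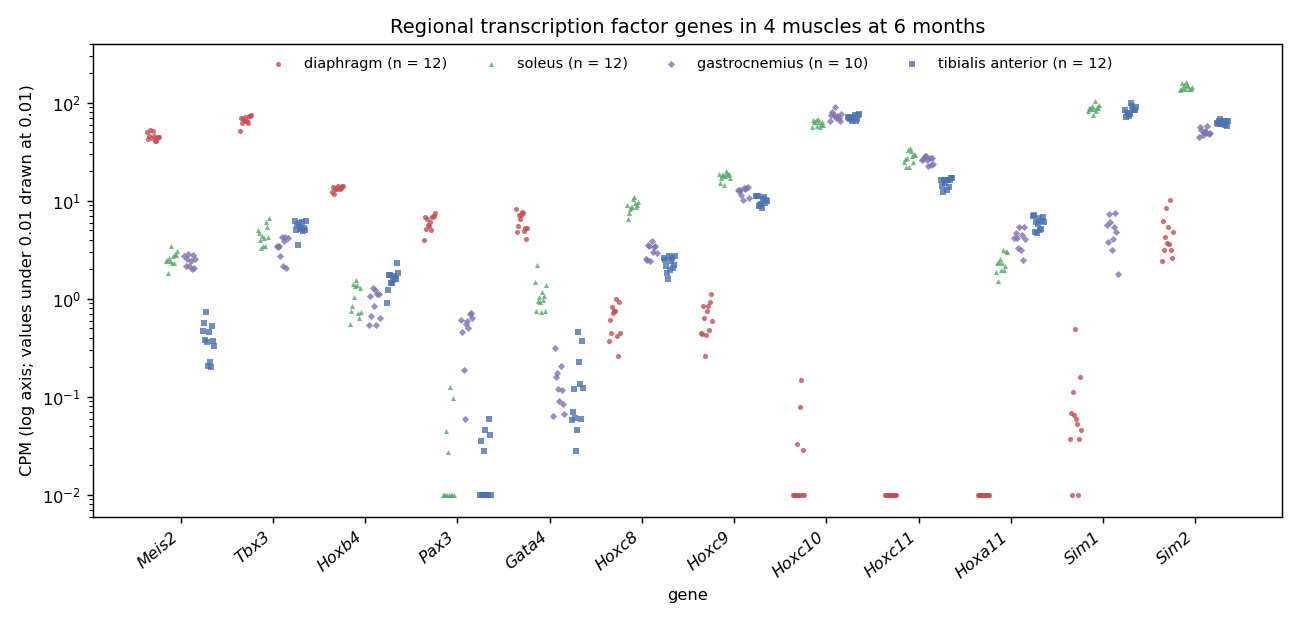
CPM on a log axis of positional genes in the 12 diaphragm, 12 soleus, 10 gastrocnemius and 12 tibialis anterior libraries at 6 months, 1 point per library, with values under 0.01 drawn at 0.01. Meis2, Tbx3 and Hoxb4 lie high in the diaphragm, while Hoxc10, with limb medians of 63.9, 73.9 and 70.0 CPM, has a diaphragm median of 0.

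The same muscles were compared at 9 months in libraries from other rats, 11 of diaphragm and 12 of tibialis anterior. There 3902 of 11480 genes (34.0%) were called, 2510 (21.9%) higher and 1392 (12.1%) lower. Called the same way at both ages were 3464 genes, 89.4% of the calls at 6 months and 88.8% of those at 9 months, and 0 genes were called in opposite directions. Myh7 differed by 3.04, Myh4 by -4.85, Meis2 by 6.84 and Hoxc10 by -11.15. A difference between the ages was called for 0 of 11806 genes (0.0%) by limma-voom and for 0 by edgeR, and 681 (5.77%) had an unadjusted p under 0.05 by limma-voom. Of 195 named genes called at 6 months, 186 were called the same way at 9 months and 125 at all 6 later ages up to 27 months. Among those that were not, Sln differed by 6.07 at 9 months, 2.85 at 21 months and 0.35 at 27 months, and Musk by 1.81, 0.03 and -1.31 at these ages.

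**Figure D5:**
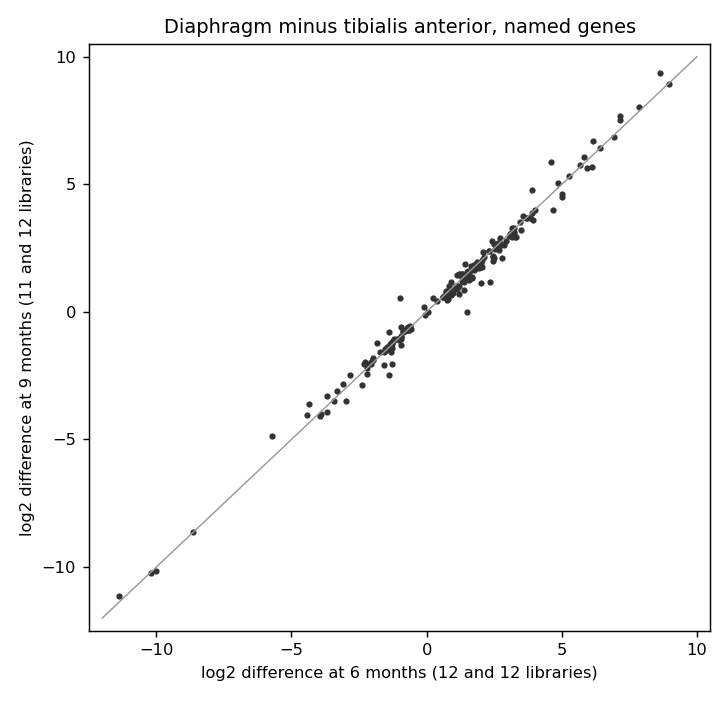
Log2 difference, diaphragm minus tibialis anterior, of 200 named genes at 6 months (x axis, 12 and 12 libraries) and at 9 months (y axis, 11 and 12 libraries of other rats), with the line of equal values. The sign differs for 3 genes, Chrne, Ciart and Atf3, and the points run from Hoxc10 at -11.37 and -11.15 to Wt1 at 8.98 and 8.93.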

How the data were processed

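Total RNA of muscle kept in RNAlater was depleted of ribosomal RNA and sequenced as strand-specific read pairs. The authors deposited raw counts per gene from the ArrayStudio pipeline (version not given in the sources used here) on a rat reference with an in-house RefSeq-based gene model, unnormalized. Each file lists 17870 lines and 17315 symbols, and lines of a symbol were summed (494 symbols, 1.924% of counts).

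Muscle and age came from the labels. With R 4.3.3, limma-voom (limma 3.58.1) was run two-sided on TMM-scaled counts after filterByExpr (minimum count 10, minimum total 15). Alternatives used edgeR 4.0.16 and DESeq2 1.42.0, and the procedure was tested on simulated data. Few genes were changed there, equally in both directions, so it could not test the scaling where changes are many and uneven, as between these muscles. CPM were TMM-scaled, and log2 values for correlations had a prior count of 0.5. Leaving out single libraries was chosen after seeing the data.

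Members and gene lists were chosen with earlier results of these data known. Named genes were a panel, the 10 highest and 10 lowest called genes with mean log2 CPM over 0, up to 5 called members per list with the largest differences and those against the list's direction, and the 10 genes in each direction that differed most from every limb muscle, also with mean log2 CPM over 0. Rp1, Gabrr1, Ush1c, Lingo4 and Pln were added after their values were seen. Without a genome of the files' build, positions are not given for the counts, and promoter windows come from RefSeq's GRCr8. Floors cover counting error only. Some genes that the rule names are not reported here.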

Additional observations from a re-analysis of the deposited data

Results flagged for a closer look

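For Lingo4, a leucine-rich repeat membrane protein, the difference between the muscles itself differed between the ages, by -0.39 on the log2 scale at 9 against 6 months (SE 0.06, limma-voom adjusted p = 0.00089, and -0.39 with adjusted p = 0.00093 by edgeR). At 6 months it was at 44.1, 47.8 and 53.8 CPM in the diaphragm and at 38.5, 41.9 and 47.1 CPM in the tibialis anterior (0.18, SE 0.04). At 9 months it was at 41.3, 43.3 and 53.2 against 46.1, 53.0 and 59.5 CPM (-0.23, SE 0.05). It was the 1 gene of 11806 with an adjusted p under 0.05 for this test, and the change stayed under 1.5-fold.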

How the results depend on the processing

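The number of genes called at 6 months was 3871 to 4796 under other scalings and tools or without the filter on low counts, 3795 without symbols on more than 1 line, 3797 with sample quality weights, 4177 with all 4 muscles in the fit, 3182 with Bonferroni adjustment, and 3615 with all libraries thinned to the lowest total. Without any one of the 24 libraries it was 3773 to 3949. A 2-fold threshold gave 1813 genes at 6 months, 1812 at 9 months and 361 that differed from all 3 limb muscles, which by construction is fewer, and Bonferroni adjustment gave 390 of the latter. Scaling to the library total turned the sign of Mb (0.33) and Chrne (0.29), and the cause was not tested. Of 204 named genes, 204 kept their direction and call with RLE size factors, 201 with edgeR and 181 with scaling to the total. Fitting all 4 muscles together left the differences of Myh2 (0.92) and Alb (7.16) much as they were, but their SEs were 0.66 and 4.83 and neither was called (adjusted p = 0.2 and 0.17). Counts of list members moved by over 1.5 times for 14 of the lists at 2-fold. With scaling to the total the calls came to 22 rather than 14 of the fatty acid genes, 14 rather than 5 endothelial markers, 13 rather than 8 regulators, 7 rather than 3 smooth muscle markers and 1 rather than 4 clock genes. With Bonferroni adjustment 3 adipocyte, 1 tendon and 0 liver markers were called, and thinning left 3 tendon markers. Without the filter 9 T and B cell and 5 liver markers were called. Tbx4, Tbx5 and Pitx1 had too few counts to pass the filter.

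Libraries of both muscles carry replicate numbers 0 to 11, but no source says that a number marks an animal. With the replicate number as a block, 3876 genes were called at 6 months, and of 204 named genes only Robo4 lost its call. Over 8550 genes, deviations of same-numbered libraries correlated at 0.007 to 0.387 (median 0.286), above 0.1 for 10 of 12 numbers, with a median of -0.043 for different numbers. In each muscle 9 of 12 libraries correlated best with their own number, which is a hint from the data and not the design.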

Other observations

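Myh6 varied between runs of replicate numbers in both muscles. It was lowest in replicates 3 to 5, at 9.34 to 11.9 CPM in the diaphragm against 56.9 to 133 CPM in the other 9, and at 1.96 to 5.01 CPM in the tibialis anterior against 5.78 to 21.1 CPM. It was highest in replicates 6 to 8, at 119 to 133 CPM and 17.6 to 21.1 CPM. Pfkfb3 was at 141 to 262 CPM in replicates 0 to 5 of the tibialis anterior and at 59.8 to 102 CPM in replicates 6 to 11, whereas in the diaphragm these ranges overlapped, at 14.4 to 57.5 and 15.1 to 24.5 CPM. These runs were noticed in the data, and the labels name no batch.

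Diaphragm replicate 0 was also highest for Pck1 (131 CPM against 3.69 to 39.0 in the other 11), Cidea (20.2 against 2.81 to 5.28) and Csrp3 (128 against 4.59 to 51.3). Slc26a3, an anion exchanger, had 1113 counts over the diaphragm libraries and 2 over those of the tibialis anterior, a ratio of 529 (95% counting interval 146 to 4370). RGD1564419, a predicted gene, had 0 and 680 counts, at least 238-fold lower against a floor of 3 counts over the group.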
